A study of Mus musculus with 2 samples.

Results

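In mouse testis RNA, 49837 contigs were covered by reads on one strand while a second contig was covered on the opposite strand of the same bases. A contig is a stretch of the genome with continuous read coverage on 1 strand, so it is a piece of a transcript and not a gene. The members were chosen by their reproducibility fraction, length and overlap in the authors' contig list on the mm9 assembly, namely a fraction of at most 0.1, a length of at least 200 and under 5000 bases, and an overlap of at least 100 bases with another such contig on the other strand. They make up 11.4% of the 437345 contigs of the same fraction and length and 4.71% of all 1057671 contigs, and they form 28598 pairs. The fraction, strand, position and length come from the same reads as the levels, so levels are given as a description, and splice junctions and gene values did not enter the choice.

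The RNA came from testes of 8-week-old adult male C57BL/6J mice, and the labels give 1 group with no treatment and no genetic change. It was poly(A) selected, freed of ribosomal RNA, longer than 200 nucleotides, and read in a strand-specific way as pairs of 76 nucleotides. The labels call the 2 libraries biological replicates 1 and 2 and speak of littermates, yet give both the same donor identifier, so separate animals are not certain and any spread between them may be technical. The contig list combines both libraries, so a contig's level has no replicate error, and the contigs are not replicates of anything.

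A gene's 2 DNA strands can both be transcribed. Neighbouring genes may overlap at their starts with their bodies on either side (divergent), run toward each other so that their ends overlap (convergent), or lie one within the other as a sense gene and an antisense RNA. Bidirectional promoters often sit in CpG islands, and antisense transcripts are well known in testis, where meiotic and haploid germ cells transcribe much of the genome. In bulk tissue, RNA of both strands can come from the same cells or from different ones, and fewer cells of a type and less RNA per cell cannot be told apart.

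No mm9 sequence was used here, so the contigs themselves are shown by position. To show what a start region with RNA on both strands can look like, promoter windows of 2 divergent gene pairs with exons on both strands of the same bases are printed from RefSeq on GRCm38.p6 (the mm10 assembly). Each window runs from 250 bases before to 50 bases after the gene's start, 5′ to 3′ on the gene's own strand. They are the first 2 divergent pairs that qualified, in order of the level of the lower gene, on the chromosomes searched. A pair qualified when its RefSeq starts both lay within 50 bases of the annotated 5′ ends, and not every chromosome was searched. Capitals mark GC boxes, searched as GGGCGG on both strands. Tmem267 (chr13:119487836-119488135, plus strand) encodes a transmembrane protein, and its start lies 298 bases from that of 3110070M22Rik (chr13:119488335-119488634, minus strand). Glt8d1 (chr14:31001143-31001442, plus strand) encodes a glycosyltransferase, and its start lies 273 bases from that of Spcs1 (chr14:31001617-31001916, minus strand), a subunit of the signal peptidase complex.
Tmem267: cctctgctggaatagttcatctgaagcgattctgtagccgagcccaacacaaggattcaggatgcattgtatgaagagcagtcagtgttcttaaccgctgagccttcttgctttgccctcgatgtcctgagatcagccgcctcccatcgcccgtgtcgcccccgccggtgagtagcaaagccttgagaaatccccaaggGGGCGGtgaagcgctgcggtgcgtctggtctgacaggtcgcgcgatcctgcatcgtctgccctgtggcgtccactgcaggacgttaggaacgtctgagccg
3110070M22Rik: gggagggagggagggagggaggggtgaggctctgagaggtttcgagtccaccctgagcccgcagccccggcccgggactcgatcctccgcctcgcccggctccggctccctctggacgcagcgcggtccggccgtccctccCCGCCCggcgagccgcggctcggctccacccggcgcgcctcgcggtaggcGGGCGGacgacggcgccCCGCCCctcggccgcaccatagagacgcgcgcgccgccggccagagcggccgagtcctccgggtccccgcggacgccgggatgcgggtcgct
Glt8d1: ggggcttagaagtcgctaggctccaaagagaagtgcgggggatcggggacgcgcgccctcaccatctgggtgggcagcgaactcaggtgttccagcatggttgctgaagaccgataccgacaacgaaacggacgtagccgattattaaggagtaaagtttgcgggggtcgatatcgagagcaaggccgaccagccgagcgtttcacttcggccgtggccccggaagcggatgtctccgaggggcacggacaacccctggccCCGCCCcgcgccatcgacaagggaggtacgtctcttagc
Spcs1: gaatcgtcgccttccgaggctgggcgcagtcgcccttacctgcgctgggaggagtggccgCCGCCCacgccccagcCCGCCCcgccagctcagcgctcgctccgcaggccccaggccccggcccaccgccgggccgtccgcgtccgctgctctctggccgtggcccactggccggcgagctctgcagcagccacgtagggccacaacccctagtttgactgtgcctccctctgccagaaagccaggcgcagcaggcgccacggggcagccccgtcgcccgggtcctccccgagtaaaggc

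The Tmem267 window holds 1 GC box and 22 CpG dinucleotides, and the 3110070M22Rik window holds 3 GC boxes and 48 CpG. The Glt8d1 window holds 1 GC box and 30 CpG, and the Spcs1 window 2 GC boxes and 32 CpG. None of the 4 windows holds a TATA box (searched as TATAAA) or a cAMP response element (TGACGTCA), both searched on either strand. In each pair the plus start lies to the left of the minus start, so both genes are first transcribed toward and across each other. Their exons overlap by 162 bases in Tmem267 and 3110070M22Rik and by 252 in Glt8d1 and Spcs1, and the windows share no base. Most bases between the 2 starts of a pair lie outside both windows and are not printed.

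Each member's level was its summed read coverage per base divided by a constant of 20.3, so that a level of 1 is an average depth of about 20.3 reads over the contig in both libraries together. The members' levels ran from 0.059 to 734 with a median of 0.35, and their lengths had a median of 556 bases. The other 387508 contigs of the same fraction and length had a median level of 0.227 and a median length of 407 bases. Members thus sat higher and were longer than the rest, and a longer contig has more bases on which a partner can lie. The 2 strands were used evenly, with 24932 members on the plus and 24905 on the minus strand.

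Most members had only 1 partner, though that partner could have others. Of all members, 43807 (87.9%) had 1 partner, and the most partners of 1 contig was 7. Linked through shared partners, the members formed 21239 loci, of which 16429 held 2 contigs, 4810 held 3 or more, and the largest held 15. The lengths of the members summed to 43.8 Mb, with bases shared by both strands counted on each strand. The overlaps of the pairs covered 11.7 Mb of the genome.

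The values just inside and just outside each limit of the rule were as follows. The 45 pairs with an overlap of 100 bases had a median lower level of 0.172 and a median higher level of 0.393, and the 41 pairs at 99 bases had 0.199 and 0.603. Among the contigs that could be members, the 37 of 200 bases had a median level of 0.27, and the 39 that were 1 base shorter had 0.267. At the upper end, the 52 contigs within 100 bases below 5000 had a median of 2.69, and the 50 in the 100 bases from 5000 had 1.96. The reproducibility fraction takes few values, and the 2811 contigs at 0.09 had a median level of 0.123, while 1731 outside at 0.13 had 0.109. Of the members, 32698 had a fraction of 0, and their median level was 0.712.

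In most pairs the 2 contigs had unequal levels, and the lower contig was a weak signal. Each level is an average over the whole contig and not over the shared bases. Values of lower and higher contigs, here and below, count a contig once for each of its pairs. Of the members, 1926 were the lower contig in one pair and the higher in another. The overlap covered at least 90% of the shorter contig in 56.2% of pairs, so the ratio need not be the strand balance at the shared bases. The lower contig had a median level of 0.222 and the higher one 0.833, and the median ratio of higher to lower was 2.75, with the middle 50% of pairs between 1.57 and 6.15. The coverage of the lower contigs amounted to a median of 28.0 read lengths and at least 7.21, against 224 for the higher contigs, so the lower levels rest on few reads. The ratio was under 2 in 36.7% of pairs and at least 10 in 14.4%. It reached 100 in 267 pairs and 1000 in 10 pairs. Both contigs had a level of at least 1 in 3299 pairs (11.5%) and of at least 10 in 117 pairs.

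The lower level rose far less than the higher one. In the 5789 pairs whose higher level was 0.1 to 0.3, the median lower level was 0.144 and the median ratio 1.37. At a higher level of 1 to 3 (6851 pairs), these were 0.315 and 5.23. At 10 to 30 (1425 pairs), they were 1.21 and 12.9. In the 57 pairs whose higher contig reached 100, the lower contigs ranged from 0.093 to 61 with a median of 0.976, and the median ratio was 161. In every range the lowest of the lower levels lay between 0.059 and 0.107. Sorting pairs by the higher level leaves the lower one room only between that floor and the higher level. A ratio that rises with the higher level is thus partly built in. Reads given to the wrong strand would add to the weaker strand in proportion to the stronger one, and their part in these levels was not tested.

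**Figure D1:**
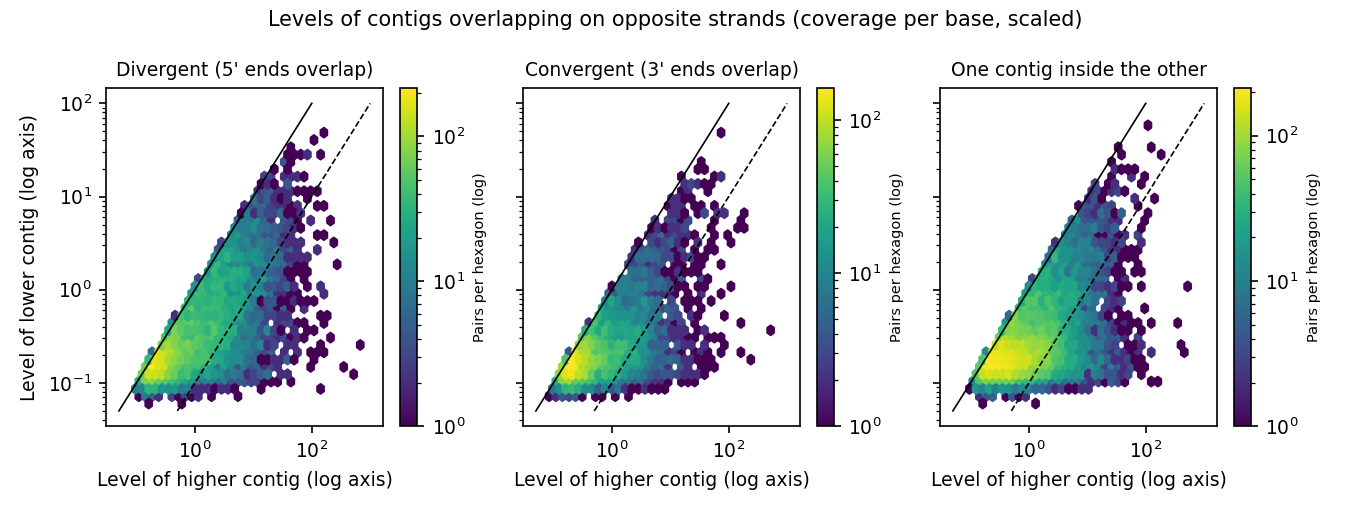
Each hexagon counts the pairs at a given level of the higher contig (horizontal, log axis) and of the lower contig (vertical, log axis), with divergent, convergent and nested pairs in separate panels. The solid line marks equal levels and the dashed line a ratio of 10, which 14.4% of the pairs reach or exceed, and the median ratio is 2.54, 2.29 and 3.16 in the 3 panels from left to right.

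The commonest arrangement was a contig lying wholly inside its partner. Such nesting made up 13418 pairs (46.9%), overlapping 5′ ends (divergent) 9582 (33.5%), and overlapping 3′ ends (convergent) 5598 (19.6%). The median overlap was 349 bases in nested, 295 in divergent and 262 in convergent pairs, and 320 in all, with a longest overlap of 4339. Nested pairs had the most unequal levels, with a median ratio of 3.16, against 2.54 in divergent and 2.29 in convergent pairs.

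Among strongly covered pairs, divergent ones took a larger share. Of the 15180 pairs that overlapped by their ends, 63.1% were divergent (95% Wilson interval 62.4 to 63.9). With both levels at least 1, 1665 of 2040 were divergent (81.6%, 79.9 to 83.2), and with both at least 10, 60 of 81 (74.1%, 63.6 to 82.4). These intervals, like all those below, cover counting error only, and contigs of 1 locus are not independent.

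In nested pairs the inner contig was usually the weaker one. It was the lower in 9887 of 13418 (73.7%) and the higher in 3527, and in 4 both contigs spanned the same bases. Over all pairs, lower contigs had a median length of 477 bases and higher ones of 886. An inner contig is the shorter of its pair, so this share is partly built in. With the outer contig cut into 3 equal stretches along its own strand, the middle of a weaker inner contig lay in the 5′ stretch in 27.2%, in the central one in 49.8% and in the 3′ stretch in 23.0%. A stronger inner contig lay in them in 23.5%, 60.2% and 16.2%. Both kinds were therefore found somewhat more often toward the 5′ than toward the 3′ end of the partner.

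The share of contigs that had a partner rose and fell with level. It was 7.44% below a level of 0.1, 18.9% at levels of 1 to 3, and 8.39% at 100 or more. The contigs at middling levels thus had a partner most often.

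The X chromosome, whose genes are silenced in meiotic spermatocytes, had fewer members than any autosome. Of 7042 X contigs of the same fraction and length, 326 were members (4.63%, interval 4.16 to 5.15), against 49492 of 430078 on the autosomes (11.5%). Autosomes ranged from 9.15% on chromosome 1 to 13.6% on chromosome 7. The median level of all such contigs was 0.271 on X and 0.234 on the autosomes, so X contigs did not have the lower median. Within the level range of 1 to 3, 8.09% of X contigs were members (6.44 to 10.1) and 19.1% of those on the other chromosomes. Of the 31 X contigs at levels of 30 to 100 none was a member, which allows a share of up to 11.0% by the same interval, and of 3 above that none was either. On Y, 19 of 221 were members (8.60%, 5.57 to 13.04), and on the mitochondrial genome 0 of 4. The density of contigs along each chromosome, which sets how often a partner can be met, was not taken into account.

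**Figure D2:**
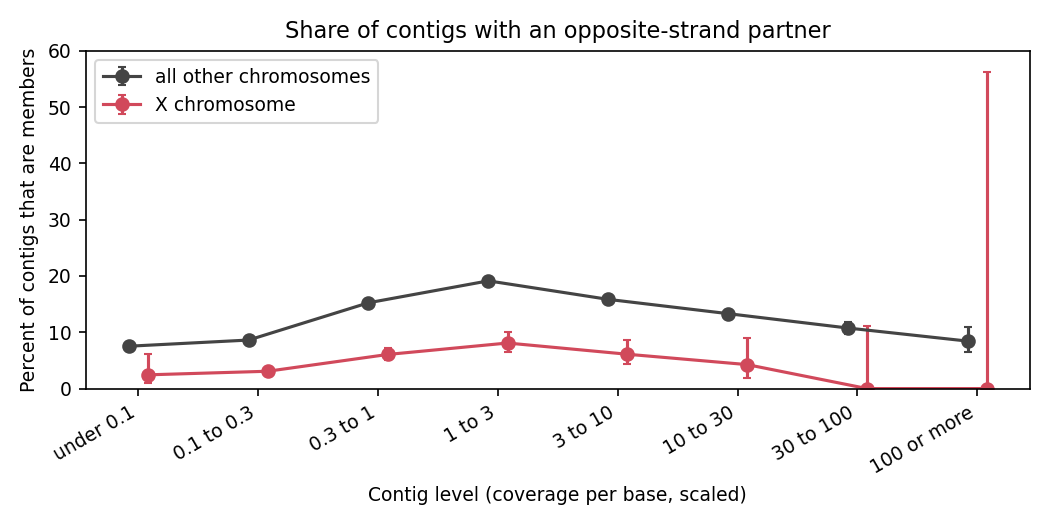
The percent of contigs that are members (vertical) is plotted by contig level (horizontal, in steps) for X and for all other chromosomes, with 95% Wilson intervals as bars. The X points lie below the others in every level range, at 8.09% against 19.1% for levels of 1 to 3, while the 2 highest X ranges hold 31 and 3 contigs and no member.

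On X, 172 pairs had a median ratio of 3.64, against 2.75 on the autosomes. The X pair with the highest lower level was divergent, with a plus contig at chrX:71032224-71032864 (mm9, level 9.99) and a minus contig at chrX:71032112-71032422 (level 7.34). Junctions only left these contigs, with 277 and 253 reads in R1 and R2 on the plus strand and 50 and 38 on the minus strand. The Y pair with the highest lower level was also divergent, with a plus contig at chrY:2857076-2859279 (level 2.7) and a minus contig at chrY:2856916-2858372 (level 8.88). Its junction reads were 94 and 98 on the plus and 27 and 26 on the minus strand.

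Splice junctions gave a readout that the choice of members did not use, with reads for each library. The authors' junction list holds 649521 records with reads under the names R1 (21978582 in all) and R2 (23043393). A junction was counted for a contig when it lay on the contig's strand, had at least 1 read in each of R1 and R2, and its exon base next to the intron lay inside the contig. Of the members, 39.1% had such a junction (interval 38.7 to 39.5), against a background of 28.8% of all contigs of the same fraction and length and 27.5% of the contigs that were no members. This order changed with level. At levels of 0.1 to 0.3, 7.04% of members and 4.96% of the others had a junction, but at levels of 1 to 3 it was 82.5% of members and 90.9% of the others. At 30 to 100 the shares were 96.5% (94.0 to 98.0) and 95.7% (94.9 to 96.4), and at 100 or more all 51 members had one (93.0 to 100) against 92.6% of the others (90.2 to 94.5).

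Contigs that junctions only leave were commoner among members. A first exon has a splice donor and no acceptor, so junctions leave it and none arrive, while a last exon shows the reverse. Junctions only left 13.5% of members (13.2 to 13.8), against a background of 5.38% of all such contigs and 4.34% of the non-members (4.28 to 4.405). Junctions only arrived at 6.78% of members, against a background of 5.45%. At matched levels of 1 to 3, junctions only left 27.1% of members and 9.73% of the others, and at 10 to 30 the shares were 23.4% and 6.61%. The difference for arriving junctions went the other way at those levels, with 11.0% against 12.9% at 1 to 3 and 7.47% against 9.75% at 10 to 30.

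Of the 3 arrangements, divergent pairs had the largest share of these donor-only contigs. Counting a contig once for each of its pairs, junctions only left 22.1% of the higher and 15.1% of the lower contigs of divergent pairs. Among the divergent contigs that had any junction, these were 36.7% of the higher and 52.5% of the lower. In nested pairs they were 13.8% of the higher and 9.06% of the lower contigs, but 23.9% of the inner contigs that were the stronger of their pair. In convergent pairs junctions only arrived at 9.84% of the higher and 5.34% of the lower contigs, or 19.7% and 31.8% of those with any junction. Junctions only left 10.2% and 4.68% of these contigs, so that in convergent pairs the 2 classes were about equally common.

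**Figure D3:**
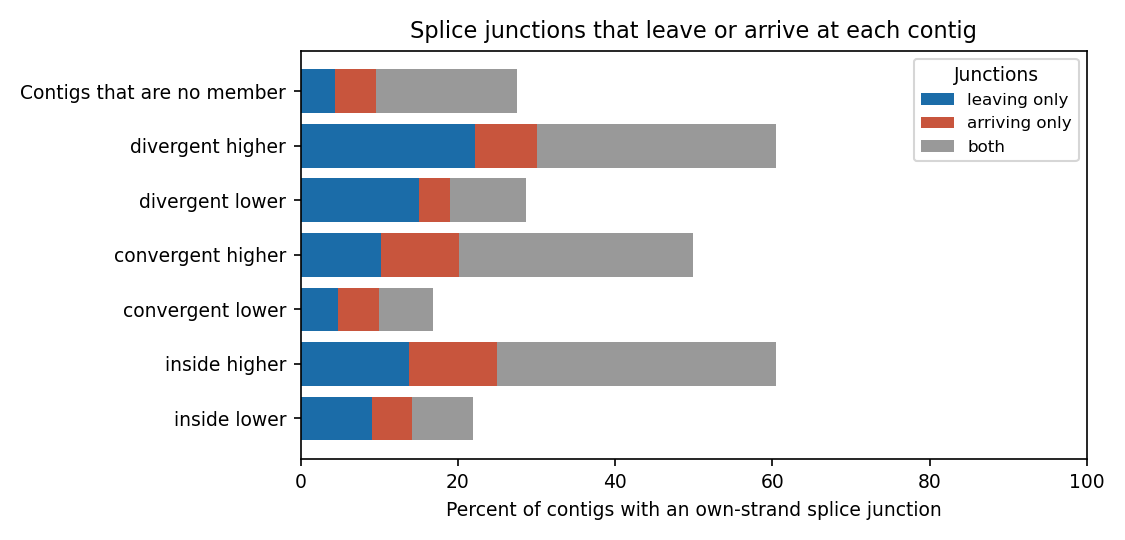
Bars show the percent of contigs (horizontal) with junctions that only leave, only arrive, or do both, for the higher and lower contigs of each arrangement and for contigs that are no members. The leaving-only part is 22.1% and 15.1% in divergent pairs and 4.34% in the non-members. Contigs of pairs count once for each of their pairs, and levels are not matched between bars.

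Splicing was seen on both strands in a minority of pairs. A junction was found on both strands in 5241 pairs (18.3%), on 1 strand in 12836 and on neither in 10521. The share on both strands depended on the reads asked for, and was 9.13% with at least 5 reads in each library and 27.4% to 27.5% when 1 library was left out. Where only 1 strand had a junction, it was that of the higher contig in 89.2%. Finding a junction depends on level, as 7.04% of members had one at levels of 0.1 to 0.3 but 82.5% at 1 to 3. The higher contig is chosen by level, so its lead in junctions is partly built in. Both strands were spliced in 23.1% of divergent, 17.1% of nested and 13.04% of convergent pairs, without matching of levels. Pairs spliced on both strands had a median lower level of 0.856 and higher level of 3.02, against 0.161 and 0.306 in pairs with no junction, so depth limits what can be seen in the latter.

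A junction was seen on fewer of the lower contigs, and those with one more often had none with the list's mark A. Of the lower contigs 23.2% had a junction, and of the higher ones 58.4%. The background was 28.8% of all contigs of the same fraction and length. A contig counts here once for each of its pairs. Levels were not matched, with medians of 0.222 in lower and 0.833 in higher contigs. Among those with a junction, no junction carried mark A in 57.7% of lower and 31.4% of higher contigs, and in 26.5% of the non-members. A contig with more junctions has more chances to hold a marked one, and these are shares of contigs, not of junctions. No source used here gives the meaning of the mark. Among introns of at least 3000 bases with at least 100 reads, the length equalled that of an intron of the same chromosome and strand in GENCODE M21 for 99.6% of the 12718 marked ones and 39.0% of the 2018 unmarked ones, and the mark was read as annotated on that basis. Of the introns, 890 were listed on both strands with at most 9 reads on a strand, and 0 of them had reads in both R1 and R2 on both strands.

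Among junctions with at least 1 read in each library, the strand balance of reads was much alike in the 2 libraries. Junctions seen in 1 library alone were left out beforehand, so they could not lower this agreement. In the 5241 pairs spliced on both strands, the higher contig had more junction reads than the lower in 77.7% of pairs in R1 and 77.8% in R2, and the same strand led in both in 90.8%. The log2 ratio of reads on the higher over the lower contig had a median of 2.32 in each, and a pair's ratios differed between R1 and R2 by a median of 0.61. In the 1463 pairs with at least 20 reads on each strand in each library, that median difference was 0.34. The ratios thus differed less between libraries where more reads stood behind them.

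**Figure D4:**
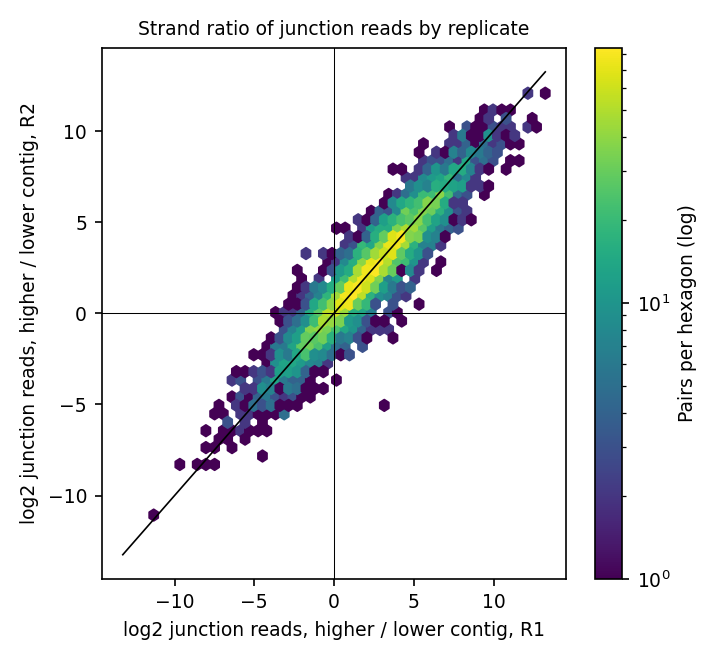
Each hexagon counts pairs by the log2 ratio of junction reads on the higher over the lower contig in R1 (horizontal) and R2 (vertical), for the 5241 pairs with junctions on both strands. The cloud follows the line of equal ratios, the same strand leads in 90.8% of pairs, and the median difference is 0.61.

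The pair with the highest level on its lower contig was nested on chromosome 1 (mm9). Its plus contig at chr1:74327257-74328015 had a level of 61 and lay inside a minus contig at chr1:74326414-74330189 with a level of 122. Junction reads on the plus strand were 951 in R1 and 952 in R2, and on the minus strand 20228 and 22509. Both strands were spliced in both libraries, and none of the 3 plus junctions carried mark A, while 9 of the 19 minus junctions did. The next pair was convergent on chromosome 5, with a plus contig at chr5:31206772-31209518 (level 53) and a minus contig at chr5:31209384-31210184 (level 78) that overlapped by 135 bases. Its junction reads were 5203 and 4674 on the plus and 3845 and 3473 on the minus strand. It was also the pair with the most junction reads on its lesser strand, so splicing was deep on both sides.

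Of the next 6 pairs by lower level, 4 were divergent and 2 nested. The third, at chr4:129168041-129169478 (plus, level 168) and chr4:129165610-129169223 (minus, level 49.1), overlapped by 1183 bases and had 4614 and 3901 junction reads on the plus but 230 and 275 on the minus strand. The fourth, at chr7:52980727-52982682 (plus, level 39.6) and chr7:52980255-52981671 (minus, level 121), had 2530 and 2149 reads on the plus and 1 and 1 on the minus strand. Its stronger strand was thus almost without splicing. In the nested pair on chromosome 8, the minus contig at chr8:40068389-40069625 had a level of 30.7 and no junction, and the plus contig inside it at chr8:40068823-40069274 had a level of 33.1 with 111 and 120 reads. In the divergent pair on chromosome 14, with contigs at chr14:54873062-54874192 (plus, level 28.9) and chr14:54872110-54873802 (minus, level 75), junctions only left both contigs, with 432 and 374 reads on the plus and 4379 and 4971 on the minus strand. The other 2 were nested on chromosome 11, with levels of 34.7 and 124, and divergent on chromosome 4, with levels of 43.9 and 31.

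The 5 longest overlaps ran from 3612 to 4339 bases. The longest was nested on chromosome 19, where a minus contig at chr19:29883220-29887558 with a level of 0.784 and no junction lay inside a plus contig at chr19:29883139-29887988 with a level of 6.36. The second, also on chromosome 19, joined a plus contig at chr19:58869577-58874491 (level 0.56) and a minus contig at chr19:58870233-58874544 (level 2.06) by their 3′ ends over 4259 bases. It had 24 and 26 junction reads on the plus and 20 and 35 on the minus strand. Of these 5 pairs, 3 were nested.

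The 5 most unequal pairs set a strong, spliced contig against a weak one on which no junction was seen. The largest ratio, 3785, belonged to a divergent pair on chromosome 6 with a minus contig at chr6:125232365-125233668 (level 458) and a plus contig at chr6:125233239-125233792 (level 0.121). The minus strand had 54327 and 43674 junction reads and the plus strand 0 and 0. In the second, on chromosome 15, a plus contig at chr15:38148644-38149733 (level 734) faced a minus contig at chr15:38148376-38148976 (level 0.277), and junctions only left the plus contig, with 10263 and 11678 reads. Of the 5 pairs, 4 were divergent and 1 nested, and the weaker contig had 0 junction reads in each. Those weaker contigs had levels of 0.093 to 0.277. Few members at such levels had a junction, 1.13% below 0.1 and 7.04% at 0.1 to 0.3.

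At the other end, 44 pairs had equal levels as listed. The 5 named ones, taken from pairs whose lower contig was at or above the median of lower contigs, had levels of 17.3, 3, 2.06, 1.36 and 1.35 on both strands. The first was divergent on chromosome 11, at chr11:29724798-29727160 (plus) and chr11:29722571-29725783 (minus), with 6 and 8 junction reads on the plus and 0 and 0 on the minus strand, few for such levels. The third, divergent on chromosome 10 at chr10:80871769-80874720 (plus) and chr10:80871079-80872202 (minus), had 51 and 49 reads on the plus and 129 and 147 on the minus strand. Of the 5, 4 were divergent and 1 convergent.

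Among pairs with deep splicing on both strands, the second by reads on the lesser strand was divergent on chromosome 4. Its plus contig at chr4:138281016-138282410 (level 35.8) had 3150 and 2510 junction reads, and its minus contig at chr4:138280837-138281233 (level 28.5) had 2862 and 2328. The third was convergent on chromosome 16, where a plus contig at chr16:17647119-17650890 (level 16.2) and a minus contig at chr16:17650780-17655703 (level 17.6) had 2108 and 2050 against 2270 and 2320 reads. In each of these pairs the junction reads of the 2 whole contigs were near balance in both libraries, while the contigs shared 218 and 111 bases. The other 2 had 2090 and 1900 reads on the lesser strand on chromosome 17, and 1674 and 1970 on chromosome 8.

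A few pairs drew nearly all their junction reads from 1 library. Over the 8274 pairs with at least 100 junction reads, the share of reads in R1 had a median of 49.7% and ran from 14.4% to 99.3%, against 48.8% over all junctions. The shares in pairs rest on junctions with at least 1 read in each library, so pairs with reads in 1 library alone could not appear. In 5 pairs, chosen after their values were seen, over 90% of the reads were in R1, and in 0 pairs under 10%. All 5 were nested. The plus contig at chr9:109728820-109729153 (level 19.3) had 860 reads in R1 and 6 in R2. Next to each other on chromosome 12, the minus contigs at chr12:104928760-104930427 (level 15.3) and chr12:104930533-104932271 (level 10.7) had 644 and 5, and 279 and 3. The minus contig at chr8:13177386-13180462 (level 4.03) had 1046 and 21. On chromosome 6, the plus contig at chr6:34369672-34370002 had 437 and 1, while the minus contig around it at chr6:34368294-34371145 had 42 and 34, so that only 1 of the strands was uneven.

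The gene tables showed the same kind of unevenness in replicate 1. Of 4 epididymis markers (Crisp1, Lcn5, Defb28, Adam7) none reached 1 TPM in both libraries, and they summed to 557 TPM in replicate 1 and 0.20 in replicate 2, with Crisp1 at 454 and 0.20 and Lcn5 at 0.11 and 0. Peritubular markers summed to 241 and 113 TPM. Their part in the pairs above was not tested. All 6 elongating spermatid, 4 round spermatid, 5 spermatocyte and 4 spermatogonium markers were detected, as were all those of Sertoli, Leydig, peritubular cells and macrophages, while none of the 3 markers of other organs was in both libraries. Of those 3, Acta1, the actin of skeletal muscle, was also uneven, with 13.3 TPM in replicate 1 and 0.66 in replicate 2. Expected counts over Ensembl genes summed to 49023238 in replicate 1 and 51465728 in replicate 2.

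Named genes could be given only on mm10, where the gene tables and the GENCODE M21 annotation share an assembly. Contigs on mm9 were not carried over, so the gene pairs below are a parallel view and not the members under other names. GENCODE identifiers were matched for 42462 of 43346 Ensembl genes, and 3015 pairs of them have exons that overlap by at least 100 bases on opposite strands. Of the 5541 genes in these pairs, 60.3% reached 1 TPM in each library and were called detected, against a background of 36.4% of all matched genes. That background holds genes of every type and was not matched for gene type. Both genes were detected in 1235 pairs. TPM is the authors' level per transcript length, scaled to a common total. No source used here says how the counting treated reads in bases shared by both genes, so the values of overlapping genes are uncertain.

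Detected pairs were mainly of protein-coding genes. There were 562 convergent, 482 divergent and 191 nested pairs, out of 1039, 986 and 990 annotated ones, so that both genes were detected in 54.1%, 48.9% and 19.3%. Both genes were protein-coding in 796 pairs, 280 joined an antisense RNA and a protein-coding gene, 72 a processed transcript and a protein-coding gene, and 87 were of other kinds. Gene types were not counted over all annotated pairs, so whether detected pairs differ from them in type is not known. The median exon overlap was 327 bases. The median ratio of mean TPM was 3.81, with 26.0% of pairs under 2 and 27.0% at 10 or more. Convergent gene pairs outnumbered divergent ones in the annotation and among detected pairs, whereas divergent contig pairs outnumbered convergent ones. Annotated exon ends and covered stretches are different things, and the 2 counts are on different assemblies.

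The leading gene was the same in both libraries in 1170 of the 1235 pairs (94.7%). The log2 ratio of the plus over the minus gene differed between libraries by a median of 0.23, and by over 1 in 29 pairs. The widest difference, 8.48, belonged to Crybg2 and Cd52, a pair chosen after its values were seen, which converge on chromosome 4 (chr4:134060815-134092504, plus, and chr4:134082448-134095082, minus) with 172 shared exon bases. Crybg2, a crystallin-domain gene, had 1.99 and 2.06 TPM in replicates 1 and 2. Cd52, which encodes a surface glycoprotein of lymphocytes and of the epididymal epithelium, had 586 and 1.70 TPM. Cd52 was thus high only in the library that carried the epididymis markers, and Crybg2 on the other strand was level.

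Among divergent pairs, Mea1 and Klhdc3 had the highest lower TPM of all 1235. Mea1 (male-enhanced antigen, plus strand, chr17:46678793-46683111) had 1155 and 1071 TPM, 1113 ± 59.4 (SD, n = 2). Klhdc3, a kelch-domain protein that serves as a ubiquitin ligase substrate receptor (minus strand, chr17:46674550-46680914), had 538 and 535 TPM, 537 ± 1.90 (SD, n = 2). Their exons share 276 bases, and Mea1 exceeded Klhdc3 in both libraries.

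Rhbdd3, a rhomboid-like membrane protein (plus, chr11:5098926-5106093), had 211 and 201 TPM, and Ewsr1, an RNA-binding protein (minus, chr11:5069689-5099266), had 385 and 442. Tmem53, a nuclear envelope protein (plus, chr4:117251951-117268582), had 888 and 917 TPM, and Armh1 (minus, chr4:117213334-117252125) had 144 and 133. For the pairs whose promoters are printed above, Tmem267 had 193 and 195 TPM and 3110070M22Rik 136 and 159, while Glt8d1 had 102 and 113 TPM and Spcs1 545 and 592. In all 5 of these divergent pairs the same gene led in both libraries, by a ratio of means from 1.31 in Tmem267 and 3110070M22Rik to 6.52 in Tmem53 and Armh1.

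Among convergent pairs, 2 of the highest involve tubulins. Tubb4b, a beta-tubulin of cilia and flagella (minus, chr2:25222160-25224702), had 2278 and 2283 TPM, 2281 ± 3.73 (SD, n = 2), and Fam166a, a protein of ciliary microtubules (plus, chr2:25218745-25222280), had 490.1 and 499 TPM, 495 ± 6.22 (SD, n = 2). They share 121 exon bases. Stk16, a serine/threonine kinase (plus, chr1:75210838-75215606), had 184 and 177 TPM, and Tuba4a, an alpha-tubulin (minus, chr1:75214228-75219865), had 145 and 177. They share 1379 exon bases, and their levels met in replicate 2.

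Agbl5, which removes glutamate from tubulin (plus, chr5:30888694-30906965), had 469 and 416 TPM, and Ost4, a subunit of the oligosaccharyltransferase (minus, chr5:30905885-30907788), had 175 and 159. Rpl28, a ribosomal protein (plus, chr7:4792874-4795066), had 303 and 211 TPM, and Ube2s, a ubiquitin-conjugating enzyme of the anaphase-promoting complex (minus, chr7:4794546-4812590), had 894 and 763. Both genes of the Rpl28 pair, and both of the Agbl5 pair, were lower in replicate 2. The lower gene of each pair stayed below its partner in both libraries.

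Among nested pairs, Gm28364 lies within Aamp. Gm28364, annotated as an antisense RNA (plus, chr1:74281161-74281866), had 427 and 489 TPM, 458 ± 44.3 (SD, n = 2). Aamp, a protein with WD repeats (minus, chr1:74279840-74284738), had 1358 and 1343 TPM, 1351 ± 10.7 (SD, n = 2). The antisense RNA rests on 2281 and 2627 expected counts and shares 334 exon bases with Aamp. Gm12481, annotated as a processed pseudogene (plus, chr4:43664043-43664339), had 266 and 258 TPM and lies within Fam221b (minus, chr4:43659622-43669145), which had 161 and 159.9. Reads of a processed pseudogene can be shared with its parent gene, so the level of Gm12481 is uncertain.

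**Figure D5:**
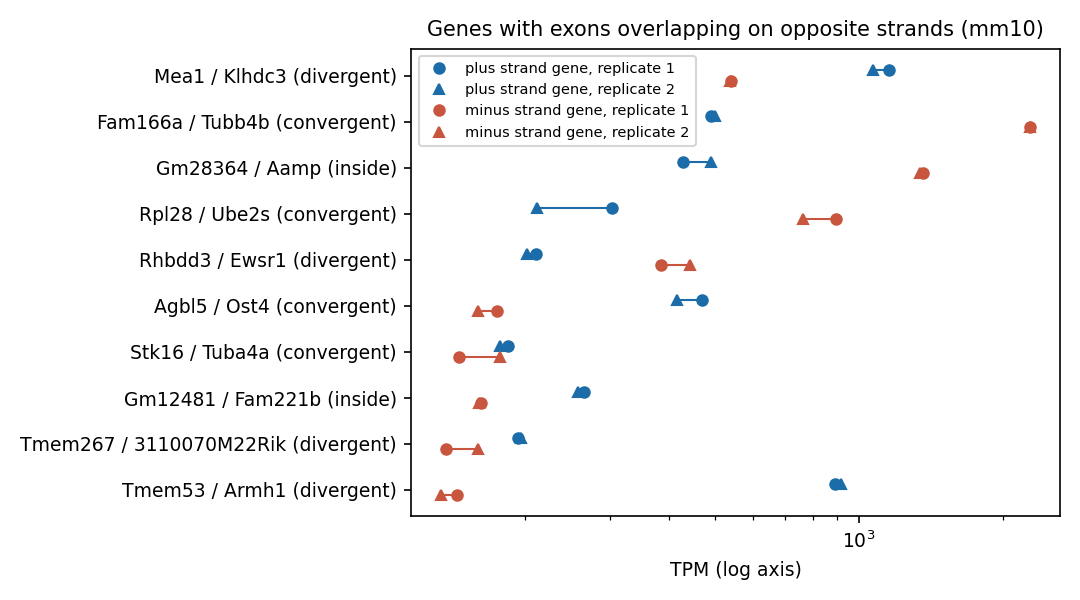
The TPM of both genes (horizontal, log axis) is shown for the 10 pairs with the highest lower TPM, with circles for replicate 1 and triangles for replicate 2, joined by a line. Mea1 and Klhdc3 lead with 1113 and 537 TPM on average, and Stk16 and Tuba4a are the pair whose values come closest, at 177 and 177 TPM in replicate 2.

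Promoters of the detected pairs were rich in CpG and GC boxes in every arrangement. Of 963 genes in divergent pairs 730 had a RefSeq window, of 1122 in convergent pairs 871, and of 376 in nested pairs 253. A GC box lay in 61.1% of the divergent, 64.3% of the convergent and 53.8% of the nested windows, against 35.7% of all 32851 windows. A TATA box lay in 6.16%, 5.28% and 8.70%, against 13.6% of all, and a cAMP response element in 2.88%, 2.76% and 1.98%, against 1.79%. The median number of CpG was 22, 22 and 15, against 7 in all. Convergent genes, whose starts lie apart, had the same CpG median as divergent ones, and all these genes were detected while the full set includes silent ones, so nothing particular to divergent starts is shown by it.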

How the data were processed

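The authors deposited contigs and splice junctions on mm9 with both replicates combined, and gene tables on mm10 with annotation M4 for each replicate, per the deposited readme. The deposited contig level is a coverage signal, the summed coverage per base divided by a constant (20.2 to 20.4, median 20.3, over all contigs), and the deposited coverage is in bases. A deposited fraction per contig was read as the irreproducible discovery rate from the file type. Each deposited junction holds a read count, the sum of R1 and R2 in all 649521 records. Per the file headers, the authors estimated expected counts per gene from transcriptome alignments and scaled them to TPM. The aligner, the contig caller and the use of strand in counting are not stated in any source used here.

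Members were found with Python 3.11.15, pandas 2.3.3 and numpy 2.4.6, and the search was tested on simulated data. Contigs were named as follows: the 8 pairs of highest lower level, the 5 of longest overlap, of largest ratio, of nearest levels (lower contig at or above the median) and of most junction reads on the lesser strand, and the highest on X and on Y. Gene pairs named are the 10 of highest lower TPM and the highest of each arrangement. A gene reaching 1 TPM in each library was called detected. Shares have 95% Wilson intervals (scipy 1.17.1). With 1 group no test between samples was made, and no p-value is given. Alternatives changed the overlap, the fraction, the length, the junction reads, the library and the TPM limit. The members and lists were chosen with earlier results of these data known. Transcript tables were not used here.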

Additional observations from a re-analysis of the deposited data

How the results depend on the processing

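Of 35 alternatives 14 left the value within the stated spread or within 1.5 times the count, and 21 moved it. A fraction of at most 0.01 left 31821 members in 18151 pairs. Divergent pairs were 35.4% at an overlap of 50 bases, 29.3% at 200 bases and 37.8% at a fraction of 0.01. Convergent pairs were 20.96%, 15.9% and 17.9% under the same settings, and nested pairs 43.7%, 54.8% and 44.3%. The median ratio was 2.82 at 200 bases, 2.81 at a fraction of 0.01 and 2.55 in pairs without another partner. With at least 5 reads in each replicate, 27.9% of members had a junction (21.1% of all such contigs), junctions only left 10.6% of members (3.86% of all), and 9.13% of pairs were spliced on both strands. Leaving out a replicate, which lowers the reads asked for, gave 47.6% to 47.7% of members and 27.4% to 27.5% of pairs. Gene pairs numbered 674 at a TPM of at least 5, 894 at an exon overlap of 200 bases and 1273 to 1302 with 1 replicate left out. Shares of arrangements thus depend on the overlap asked for, since a nested contig is at least 200 bases long and an overlap of ends can be shorter. Lower contigs rest on few reads, so a missing junction on them does not show that splicing was absent. No paired analysis was possible because the libraries form 1 group.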
